A study of Saccharomyces cerevisiae with 5 samples.

Results

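Transfer RNA genes of the budding yeast nucleus are described here across 5 phosphate doses. Members were the probe sets (groups of array probes for 1 transcript) that the platform's annotation assigns to 1 gene and that RefSeq classes as a nuclear tRNA gene. There were 92 such probe sets among the 9335 on the array, for 91 of the 275 nuclear tRNA genes in the annotation. A member counted as measured when its signal reached the background level, 11.4, on at least 2 arrays. The level is the 40th percentile of all values, and 88 members, each for a different gene, reached it. For 19 of the 91 genes the annotation gives a classical symbol whose amino acid is textbook knowledge, and 17 of these were measured. The other 72 genes carry a locus tag alone, so they are grouped by gene length and not by amino acid.

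The cells were yeast of strain W303 with the genotype PHO4-MYC::TRP1, which names a MYC-tagged PHO4, the phosphate-response factor, marked with TRP1. All cultures had this genotype, and all spent 3 h without phosphate before 80 min at 0, 0.01, 0.1, 1 or 10 mM phosphate. Each dose was measured in 1 sample on 1 Affymetrix array, so no value has a replicate error and a difference between a single pair of arrays is untested. The phosphate transporter gene PHO84, known to be on when phosphate is scarce, had signals of 1369.9, 1157, 172, 27.8 and 27.4 from 0 to 10 mM, in the order that the dose labels give. The median signal of an array lay between 17.0 and 25.5. The number of arrays limits the precision.

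A tRNA carries an amino acid to the ribosome and reads the matching codon through its anticodon. RNA polymerase III makes tRNAs from promoter elements inside the gene, with the help of the factors TFIIIC and TFIIIB, and the protein Maf1 holds this polymerase back when nutrients are short or cells are stressed. Yeast has several near-identical gene copies for most tRNAs, so a probe set for 1 copy can bind RNA from its relatives. Of the 92 members 75 have a name ending in f_at, the array maker's mark for probes picked within a sequence family, and 13 end in s_at, the mark for probes shared by several transcripts. Another 3 end in a plain at and 1 in i_at. Mature tRNAs have no poly(A) tail, and standard labelling starts cDNA synthesis from an oligo(dT) primer. How much of a signal came from mature tRNA, a precursor or a tailed molecule was not measured.

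Most tRNA members were higher at 0.1, 1 and 10 mM than at 0 and 0.01 mM. The 5 arrays in dose order had median signals of 14.0, 52.4, 179, 159 and 104 over the 88 measured members. The highest signal fell at 0.1 mM in 59 members, at 1 mM in 21, at 10 mM in 7 and at 0 mM in 1. In 73 of the 88, all 3 signals at the higher doses lay above both signals at the lower doses, against 21.9% of the 4824 measured genes. In 0 of the 88 was the order reversed, against 37.3% of all genes.

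The split of the doses into these 2 groups was first chosen after these data had been seen. Its p-values, here and below, are therefore a description and not independent evidence. In limma's comparison of 0.1, 1 and 10 mM with 0 and 0.01 mM, fitted over all 4824 genes with Benjamini-Hochberg adjustment, 65 members were higher and 0 lower. At an unadjusted p under 0.05 these counts were 75 and 0, with no count over all genes at that threshold. At the adjusted threshold the background shares were 11.4% higher and 22% lower. The median member differed by 1.70 on the log2 scale (higher minus lower doses), or 3.24-fold, and the median gene by -0.16. Single arrays moved the count. Without the array of 0.1, 1 or 10 mM it was 35, 23 and 67, and 0 members were lower in each. Of the 4824 genes 287, 256 and 306 were higher in these fits. Without that of 0 or 0.01 mM only 1 array is left at the lower doses, so no count is given. The count of members was 15 of 91 with no filter on dim probe sets, against 240 of 5656 genes. With 0.1 mM counted among the lower doses 0 members and 0 of the 4824 genes passed in limma, and 3 members were higher at an unadjusted p under 0.05.

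A member that was dim at 0 mM could be kept only if it was brighter elsewhere, and 39 of the 88 were below the level at 0 mM. The counts above are therefore a description. Without any filter, 78 of the 92 member probe sets had all 3 signals at 0.1, 1 and 10 mM above both at 0 and 0.01 mM, against 21.1% of the 6504 probe sets with 1 gene. Among the 54 members with a mean signal of at least 50, 45 were higher in the limma comparison with Benjamini-Hochberg adjustment and 0 lower, against 15.7% higher among the 2505 genes with such a mean. Of these 54 members 49 had no overlap between the dose groups, against 27.7% of those genes. Since 10 of the 54 were below the level at 0 mM, some reached that mean through the higher doses, and these counts are a description too.

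**Figure D1:**
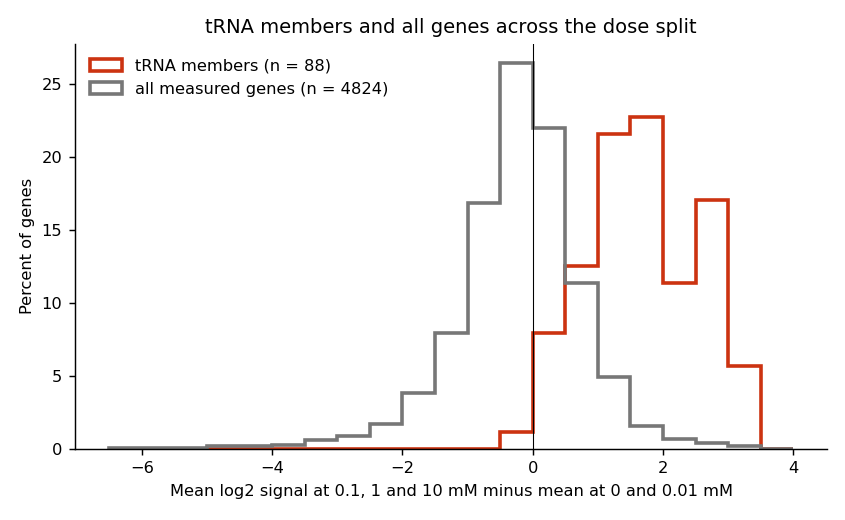
Histogram of the difference between dose groups, in mean log2 signal at 0.1, 1 and 10 mM minus that at 0 and 0.01 mM (x axis), in percent of genes (y axis), for the 88 measured tRNA members and all 4824 measured genes. The members' median is 1.70 and that of all genes -0.16.

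Along dose order, a straight line fitted with limma called 10 members as rising and 0 as falling after Benjamini-Hochberg adjustment, against 1.16% and 8.13% of all genes. At an unadjusted p under 0.05 these were 45 and 0, with no count over all genes at that threshold. The 10 were TGA1, YNCB0015W, YNCD0004W, YNCD0022C, YNCJ0006W, YNCK0008W, YNCK0019W, YNCL0035C, YNCM0035C and YNCP0022W, and 8 of them are 73 bases long. The steepest slope was that of YNCM0035C, 1.22 ± 0.24 log2 per dose step (SE, 5 arrays; adjusted p = 0.0395 in limma). The shallowest of the 10 was that of YNCB0015W, 0.42 ± 0.09 (adjusted p = 0.0415 in limma). The count was 0 without the array of 0, 0.01 or 1 mM, as it was for all genes. It was 42 without that of 0.1 mM and 44 without that of 10 mM, against 226 and 117 of the 4824 genes. It was also 0 with arrays scaled to 1 median or by quantiles, against 0 and 2 of all genes. On these scales 54 and 53 members had a positive slope at an unadjusted p under 0.05.

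Between single doses, 55 members were at least 2-fold higher at 10 mM than at 0 mM and 1 had a signal lower by 2-fold or more, against 7.52% and 21.2% of all genes. At 0.01 mM, 31 members were at least 2-fold higher than at 0 mM and 0 lower, against 2.16% and 6.84%. Both counts of higher members depend on the level, since 39 of the 88 were raised to it at 0 mM. The counts of 55 and 31 were 70 and 45 of 91 members with the level at the 20th percentile. With it at the 60th percentile they were 39 and 23 of 73. At 0.1 mM, 69 were at least 2-fold higher than at 0.01 mM and 0 lower, against 12.8% and 12.3%. At 1 mM 27 of the 88 had a higher signal than at 0.1 mM, but 0 were at least 2-fold higher than at 0.1 mM and 2, SUF3 and SUF5, lower, against 1.26% and 1.24%.

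The last dose ran the other way. At 10 mM, 78 of the 88 had a lower signal than at 0.1 mM, as did 2783 of the 4824 genes. Of the members 29 were at least 2-fold lower, and 1, YNCP0022W, was at least 2-fold higher, against 1.93% and 1.6% of all genes. Against 1 mM, 16 were at least 2-fold lower at 10 mM and 1, SUF3, higher, against 0.808% and 0.498%. The median gene differed by 0.10 (log2, 10 minus 1 mM) and the median member by -0.55. The count of 29 was 19 after quantile normalization (69 of 4812 genes) and 15 with the background level added as a pseudocount (39 of 4824). It was 4 with arrays at equal spike-in signal (12 of 5042). It was 35 of 86 members at equal hybridisation control signal (149 of 4837 genes). With the level at the 20th percentile it was 32 of 91 (155 of 5477).

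**Figure D2:**
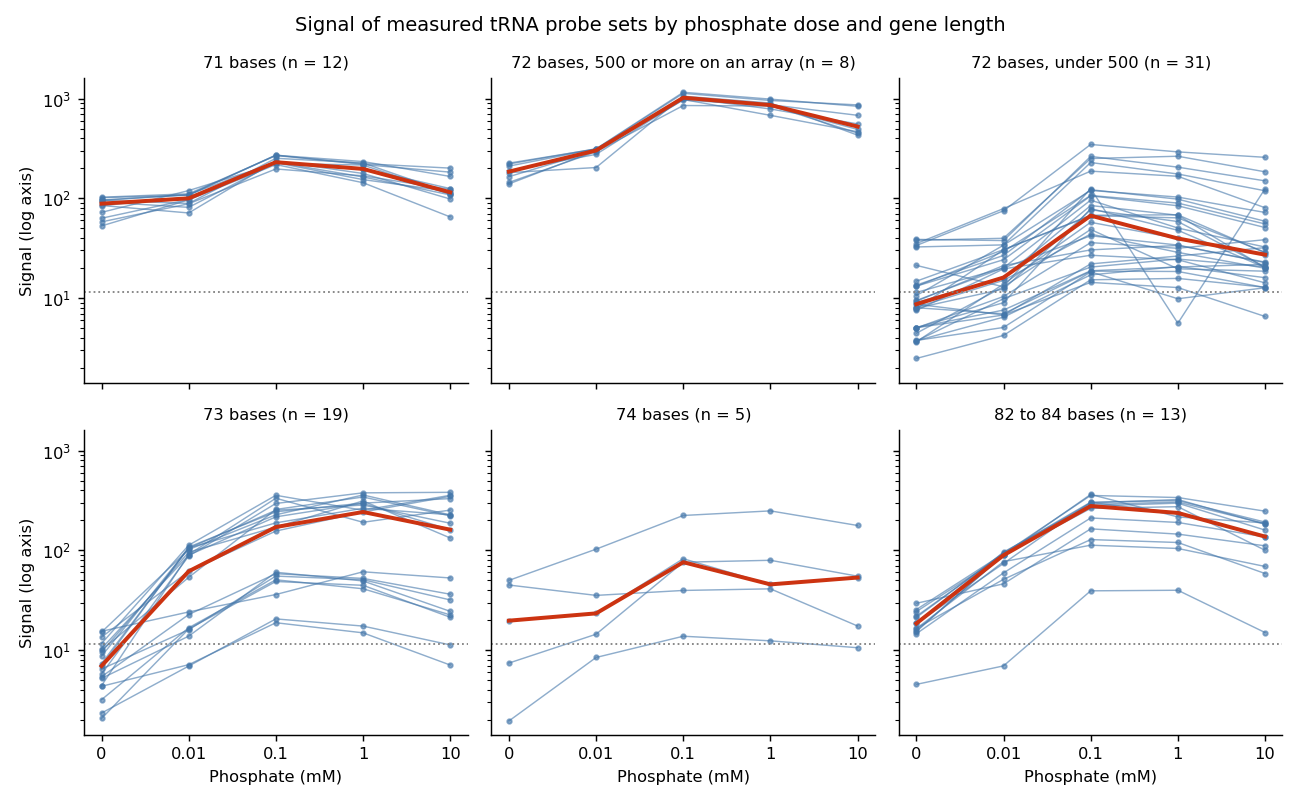
Signal (log axis) of the 88 measured tRNA probe sets at each phosphate dose (mM), 1 thin line per probe set, split by gene length in bases and, for 72 bases, by whether any array reached a signal of 500. Thick lines are medians and the dotted line is the background level of 11.4. The 8 bright 72-base lines reach 852 to 1157 at 0.1 mM, and most lines peak at 0.1 or 1 mM.

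Gene length was not used to choose the members. Length alone did not part them by level: at 0.1 mM the members of 72 bases ran from 14.4 to 1157, and the SD of their log2 signal was 2.07, against 1.67 over all 88. The measured members were 71, 72, 73, 74, 82, 83 or 84 bases long, with 12, 39, 19, 5, 11, 1 and 1 members. The 61 nuclear tRNA genes longer than 84 bases in the annotation have no member. Since copies may bind each other's RNA, members of 1 length are not independent measurements, and they are described with no test between lengths. The divisions by signal within 72 and 73 bases were made after the values were seen, and the narrower groups below come from them. Counts past the comparison of dose groups in the groups below are descriptions too, beside 11.4% of all genes higher and 22% lower.

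The 12 members of 71 bases were already well above the level at 0 mM. Their signals ran from 52.9 to 103 at 0 mM, 71.4 to 119.6 at 0.01 mM and 197 to 271 at 0.1 mM, where all 12 were highest. They were 143 to 234 at 1 mM and 65.1 to 201 at 10 mM. The median was 1.14-fold higher at 0.01 than at 0 mM, 2.38-fold higher at 0.1 than at 0.01 mM and 1.504-fold higher at 10 than at 0 mM. In the comparison of dose groups 6 passed: SUF23, YNCD0001W, YNCJ0017C, YNCM0007C, YNCO0004C and YNCP0023W.

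SUF16, SUF17 and SUF23, found as suppressors of frameshift mutations, are glycine tRNA genes of this length. SUF16 had signals of 95.5, 88.9, 252, 226 and 113 from 0 to 10 mM, and its 3 higher doses lay above its lower ones, but it did not pass (adjusted p = 0.0634 in limma). SUF17, at 84.8, 71.4, 237, 177 and 98.5, did not pass either (adjusted p = 0.0626 in limma). SUF23 kept more of its signal at 10 mM, with 103, 111, 268, 223 and 201, and was higher by 1.10 ± 0.21 (log2, SE; adjusted p = 0.00872 in limma). YNCB0005C, YNCE0004C and YNCP0009W were the 3 of this length whose dose groups overlapped.

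The brightest members were 8 of 72 bases, YNCB0018W, YNCC0001C, YNCE0012W, YNCJ0002C, YNCK0005C, YNCL0044W, YNCM0010W and YNCP0004C. Their signals were 139 to 225 at 0 mM, 204 to 314 at 0.01 mM, 852 to 1157 at 0.1 mM, 679 to 988 at 1 mM and 429.8 to 864 at 10 mM, and all 8 passed the comparison of dose groups. YNCP0004C, the brightest member on any array, had 221, 314, 1157, 988 and 838 (difference 1.90 ± 0.25 log2, adjusted p = 0.00189 in limma). YNCE0012W differed little between the first doses, with 181 and 204 at 0 and 0.01 mM, then 1057, 902 and 429.8. The 8 parted at 10 mM, where YNCL0044W, YNCP0004C and YNCB0018W had 679.7 to 864 and the other 5 had 429.8 to 558.

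Among the 31 dimmer members of 72 bases, 19 passed the comparison of dose groups. In YNCE0013W, YNCK0012C and YNCM0020W the signals at 0 and 0.01 mM lay within 1.05-fold of each other, and the difference between dose groups came between 0.01 and 0.1 mM. YNCE0013W had 38.0, 39.8, 251, 264 and 184 (difference 2.57 ± 0.23 log2, adjusted p = 0.000505 in limma). YNCK0012C had 38.8, 37.7, 263, 205 and 149.8. YNCM0020W had 32.6, 34.1, 229, 175 and 119. In all 3 the dose groups were far apart, and the smallest adjusted p of any member in this comparison was that of YNCE0013W.

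YNCJ0006W had 33.6, 75.1, 347, 292 and 258, the brightest of these 31 at 0.1 mM, and was already 2.23-fold higher at 0.01 than at 0 mM. YNCB0013W, YNCC0010C, YNCD0016C and YNCE0014W had 106 to 122 at 0.1 mM and 51.0 to 72.2 at 10 mM. In YNCD0009W, YNCD0014C, YNCE0008C and YNCL0009C the signal was high at 0.1 mM, 76.9 to 95.9, and much lower at 10 mM, 20.2 to 32.5. YNCB0015W, YNCJ0011W, YNCM0004C and YNCM0033C were below the level at 0 and 0.01 mM and above it from 0.1 mM on, with 18.8 to 36.0 at 0.1 mM and 20.6 to 38.5 at 10 mM.

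With values below the level raised to it, the 10 largest folds of 10 over 0 mM were all in members of 73 bases. Several of these folds are bounds. SUF3, of 72 bases, was at least 10.9-fold higher, so its true place in this order is not known. Of the 19 of this length, 11 reached a signal of 100 on some array: TGA1, YNCD0004W, YNCJ0005C, YNCK0008W, YNCK0019W, YNCL0004C, YNCL0035C, YNCM0018C, YNCM0035C, YNCO0029C and YNCP0022W. They were near the background level at 0 mM, at 4.40 to 15.1, and well above it at 0.01 mM, at 53.6 to 113. At 0.1 mM they had 156 to 356, at 1 mM 191 to 377 and at 10 mM 133 to 382. All 11 passed the comparison of dose groups, and each was at least 2-fold higher at 0.01 than at 0 mM, by a median of 7.94-fold. That median and the median of 19.9-fold at 10 over 0 mM hold the 8 members below the level at 0 mM at the level, so they are bounds. The 11 were picked by their highest signal, so the count that passed is a description (11.4% of all genes were higher).

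TGA1, an alanine tRNA gene, had 15.1, 102, 227, 359 and 227 and was 15.0-fold higher at 10 than at 0 mM. YNCK0019W, at 11.6, 113, 356, 252 and 357, was 30.7-fold higher. YNCM0035C had 5.75, 87.8, 295, 377 and 382 and, being below the level at 0 mM, was at least 33.4-fold higher. In YNCM0035C the signal at 10 mM was the highest of the 5, unlike in most members. In YNCK0019W the signals at 0.1 and 10 mM were nearly equal, at 356.43 and 356.55. YNCP0022W, at 13.5, 61.7, 156, 242 and 348, was highest at the last dose, and YNCD0004W, at 6.94, 108, 244, 298 and 330.4, was too. YNCM0018C, at 4.40, 90.8, 333, 191 and 253, dipped at 1 mM. For YNCD0004W, YNCM0018C, YNCK0008W, YNCL0035C, YNCJ0005C and YNCL0004C the fold at 10 over 0 mM was at least 28.9, 22.1, 19.9, 19.4, 16.4 and 14.1.

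The other 8 members of 73 bases were dimmer, at 14.9 to 61.0 on the array of 1 mM. YNCD0013C, YNCJ0008W, YNCK0017W, YNCL0007W and YNCO0012C had 13.8 to 22.7 at 0.01 mM and 48.8 to 60.3 at 0.1 mM, and all 5 passed the comparison of dose groups. YNCD0022C passed too and was highest at 1 mM, with 15.4, 24.1, 36.1, 61.0 and 52.9. EMT5 and YNCJ0018W stayed close to the level and did not pass.

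Members of 82 bases, like the bright ones of 73 bases, were already higher at 0.01 mM. The 8 family probe sets without a classical symbol, YNCA0006C, YNCB0006W, YNCD0006W, YNCD0019C, YNCE0005W, YNCJ0023C, YNCL0002C and YNCM0009C, had 15.4 to 25.5 at 0 mM and 73.9 to 96.2 at 0.01 mM. They had 263 to 363 at 0.1 mM, 216 to 339 at 1 mM and 100.3 to 247 at 10 mM, so the higher doses did not overlap the lower ones. All 8 passed the comparison of dose groups, and their median was 4.34-fold higher at 0.01 than at 0 mM and 8.69-fold higher at 10 than at 0 mM. YNCD0028W, the 1 member of 83 bases, had 14.6, 59.4, 211, 190.5 and 136 and passed (adjusted p = 0.0114 in limma). YNCG0028W, of 82 bases and with a plain at probe set, had 16.4, 77.0, 113, 104 and 69.0. Its signal at 10 mM lay below that at 0.01 mM, and it did not pass (adjusted p = 0.11 in limma).

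**Figure D3:**
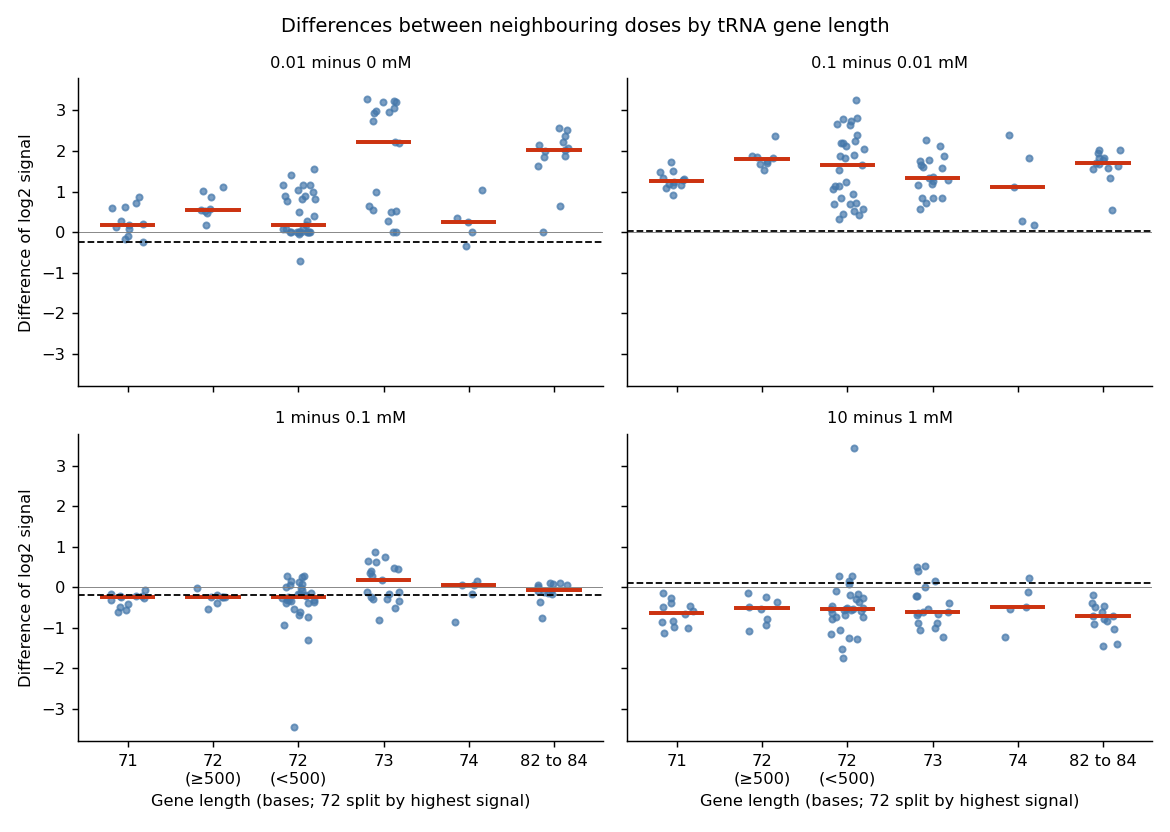
Difference of log2 signal between each pair of neighbouring doses (y axis) for the 88 measured tRNA members, by gene length in bases, with 72 bases split at a highest signal of 500 (x axis). Points are members, bars medians and dashed lines the median of all 4824 genes. Values below the background level were raised to it before the differences were taken. At 0 mM this held for 15 of the 19 members of 73 bases, 21 of the 39 of 72 bases and 0 of the 11 of 82 bases. Medians and spreads of the differences from 0 to 0.01 mM therefore need not be those of the unraised signals. From 0 to 0.01 mM the medians of 73 and of 82 to 84 bases stand highest, with a wide spread at 73, from 0.01 to 0.1 mM every point is above 0, and from 1 to 10 mM 77 of the 88 points are below 0.

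The spread among members of 1 length and brightness was narrow in some groups and wide in others. The SD of the log2 difference, 10 minus 0 mM, was 0.23 among the 8 family members of 82 bases, 0.28 among the 8 bright ones of 72 bases, 0.32 among the 12 of 71 bases and 0.50 among the 11 bright ones of 73 bases. It was 0.69 among the 8 dimmer ones of 73 bases, 0.89 among the 31 dimmer ones of 72 bases, 1.49 among the 5 of 74 bases and 1.38 over all 88. Values below the level were raised to it first, so these SDs need not be those of the unraised signals. At 0 mM this held for 8 of the 11 bright members of 73 bases and 7 of the 8 dimmer ones. It held for 21 of the 31 dimmer members of 72 bases and 2 of the 5 of 74 bases. In the groups of 71 bases, bright 72 bases and 82 bases it held for 0. How much signal the copies share was not measured, so similar values need not mean that each copy was made alike.

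By amino acid, glycine had 7 measured members with a classical symbol, and their patterns differed. SUF1 and SUF6, of 72 bases, were close to each other from 0.01 mM on. SUF1 had 14.8, 30.6, 67.7, 68.4 and 28.5, and SUF6 had 7.82, 30.5, 67.1, 63.7 and 28.8. In both the signal at 10 mM lay below that at 0.01 mM, so the dose groups overlapped, and neither passed (adjusted p = 0.0744 and 0.0668 in limma). SUF3 had 4.44, 13.0, 125, 5.60 and 125, high at 0.1 and 10 mM and below the level at 1 mM. SUF5 had 21.3, 13.0, 48.7, 19.7 and 18.6 and was high at 0.1 mM alone. Of the 7 glycine members SUF23 was the 1 that passed.

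The proline tRNA genes SUF2 and SUF10 were similar to each other, and both passed the comparison of dose groups. SUF2 had 8.09, 15.1, 43.9, 28.7 and 19.9 (difference 1.16 ± 0.34 log2, adjusted p = 0.0374 in limma). SUF10 had 11.4, 20.03, 42.1, 34.0 and 22.7 (difference 1.08 ± 0.34 log2, adjusted p = 0.0481 in limma). The serine tRNA genes SUP16 and SUP19, known as nonsense suppressors, passed too. SUP16 had 16.5, 51.2, 128, 119.9 and 58.6, and SUP19 had 29.5, 46.2, 164, 146 and 111. SUP16 was 3.10-fold and SUP19 1.57-fold higher at 0.01 than at 0 mM, against a median of 4.34-fold for the 8 other family members of 82 bases.

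CDC65, a glutamine tRNA gene, had 3.64, 13.8, 57.5, 39.6 and 27.2 and passed (difference 1.65 ± 0.32 log2, adjusted p = 0.00895 in limma). SUP51, a leucine tRNA gene and the 1 member of 84 bases, had 4.53, 6.94, 39.3, 39.8 and 15.0 and passed by a small margin (adjusted p = 0.049 in limma). The arginine tRNA gene TRR4, with a plain at probe set, had 7.51, 19.6, 26.9, 24.2 and 14.2, and its dose groups overlapped. Methionine uses separate tRNAs to start and to extend a protein. The initiator gene IMT3 had 8.69, 6.77, 14.4, 12.8 and 6.54, and the elongator gene EMT5 had 2.34, 6.92, 20.5, 17.4 and 11.3. Both were above the level at 0.1 and 1 mM alone and did not pass.

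**Figure D4:**
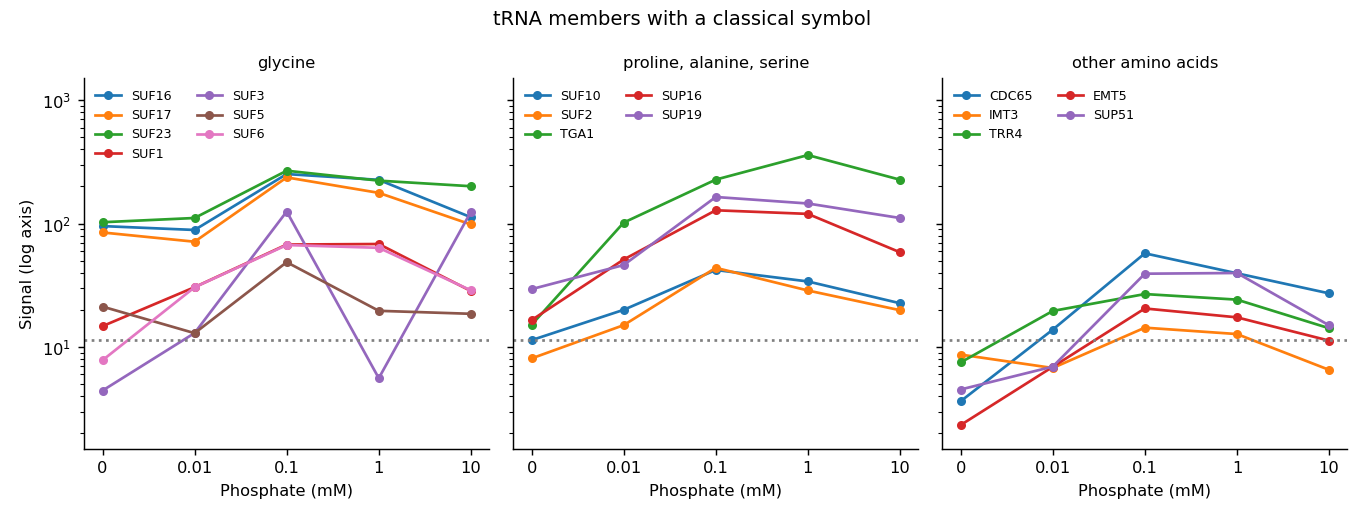
Signal (log axis) by phosphate dose (mM) of the 17 measured tRNA members with a classical symbol, grouped by amino acid. The dotted line is the background level of 11.4. The glycine genes SUF16, SUF17 and SUF23 run close together, SUF1 and SUF6 lie below them, and SUF3 drops to 5.60 at 1 mM.

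YNCK0003W, of 74 bases, was the 1 member at least 2-fold lower at 10 than at 0 mM, with 44.9, 35.4, 39.6, 41.1 and 17.4. It was nearly level up to 1 mM, and its difference between dose groups was -0.38 ± 0.39 (log2; adjusted p = 0.482 in limma), which turned to 1.71 at equal spike-in signal. On that scale 3315 of 5042 genes were higher and 45 lower in this comparison. SUF5 was the 1 other member with a lower signal at 10 than at 0 mM among those at or above the level at either dose. Of the other members of 74 bases 3 passed the comparison of dose groups. YNCJ0015W had 50.04, 103, 224, 249 and 178, YNCC0005W had 19.7, 23.3, 82.4, 45.6 and 53.4 and YNCB0011C had 7.42, 14.4, 76.1, 79.5 and 55.1.

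The members just inside the level rule, each at or above 11.4 on 2 arrays, were IMT3, EMT5, YNCE0010W, YNCJ0018W and YNCL0038W, with highest signals of 14.4, 20.5, 18.3, 18.8 and 13.8. Just outside it were YNCJ0001C, highest at 10.3, TRT2, a threonine tRNA gene, highest at 9.43, and the probe sets of HSX1, an arginine tRNA gene, highest at 3.61 and 0.937. Over the 92 probe sets, with no filter, the lowest signal was at 0 mM in 84.

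Family and shared probe sets differed in level. The 74 measured f_at members had a median signal of 217 at 0.1 mM, and 59 passed the comparison of dose groups. The 12 measured s_at members had a median of 37.7, and 6 passed. Of the plain at members TRR4 and YNCG0028W were measured, and 0 passed. Among all genes 11.4% were higher in this comparison. The measured members of 74 bases were all s_at, so the mark was tied to length in part. The other measured s_at members were 72, 73 or 84 bases long. At 0 mM 7 of the 12 s_at members were below the level, and 31 of the 74 f_at members. At 10 mM these were 4 and 0. How each probe set binds was not measured.

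Of the 175 nearest protein-coding genes on either side of the 88 genes, in RefSeq order, 133 were measured. In the comparison of dose groups by limma with Benjamini-Hochberg adjustment 13 were higher (9.77%) and 42 lower (31.6%), against 11.4% and 22% of all genes. Their median difference was -0.20 log2, against -0.16 for all genes.

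Of 42 measured genes for small nucleolar RNAs, which guide the modification of ribosomal RNA and also lack a long poly(A) tail, 19 were higher and 1 lower in the comparison of dose groups, against 11.4% and 22% of all genes, with a median difference of 0.69 log2. Control probe sets for ribosomal RNA ran the other way, with a geometric mean for 18S of 46.8 at 10 mM against 173 at 0 mM, and for 25S of 77.8 against 345. The poly-A spike-in controls, bacterial RNAs usually added before labelling, were at 23.4 at 10 mM against 243 at 0 mM. Hybridisation controls differed less, with 50.8, 45.3, 43.0, 53.3 and 46.3 from 0 to 10 mM. Signals of ACT1 probes at the 3' end over those at the 5' end, which reflect how intact the RNA is, had ratios of 2.37, 3.00, 1.11, 2.19 and 2.02 in dose order. Those of TBP probes were 2.63, 4.52, 2.01, 2.35 and 1.51. The ACT1 ratio was lowest at 0.1 mM, where most tRNA members were highest, and the TBP ratio at 10 mM. The part of these in the tRNA differences was not tested. With arrays at equal spike-in signal 86 of 90 measured members were at least 2-fold higher at 10 than at 0 mM, and so were 4467 of 5042 genes. On that scale the median difference of all genes was 2.58 log2 and that of the members 3.78.

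Among the 20 genes for RNA polymerase III and its factors, all measured, the repressor gene MAF1 differed most. It had signals of 127, 60.5, 20.9, 17.8 and 22.9 and was lower at the higher doses. The difference was -2.10 ± 0.33 log2 (SE; adjusted p = 0.00383 in limma), which turned to 0.077 with arrays at equal spike-in signal. On that scale, also used for the genes below, 3315 of 5042 genes were higher and 45 lower in this comparison. MAF1 also fell along dose order (adjusted p = 0.0448 in limma), with a slope of 0.14 on that other scale. Of the 20 genes 4 were higher and 2 lower in the comparison of dose groups, against 11.4% and 22% of all genes, with a median difference of 0.23 log2. The 4 encode subunits of the polymerase. RPC25 had 44.1, 30.0, 101, 75.1 and 102, RPC17 had 22.9, 24.3, 54.8, 41.9 and 60.5, RPC31 had 34.6, 30.8, 55.2, 66.0 and 75.8 and RPC82 had 49.0, 26.8, 78.8, 62.2 and 73.9. TFC3, for a subunit of TFIIIC, was lower, with 28.4, 28.0, 17.98, 11.9 and 19.2, which turned to 0.95 log2 at equal spike-in signal.

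Of 13 measured genes for end processing 4 were higher and 0 lower in the comparison of dose groups (all genes 11.4% and 22%), with a median difference of 0.25 log2. They were POP5, for a subunit of RNase P, LHP1, for a protein that binds the ends of new polymerase III transcripts, CCA1, for the enzyme that adds the CCA end, and TRZ1, for the nuclease that trims the 3' end. LHP1 had 136, 80.6, 236, 222 and 199. POP3, for another RNase P subunit, had 19.95, 39.2, 19.2 and 35.8 at 0, 0.1, 1 and 10 mM and did not pass. At 0.01 mM its signal was at or below the level of 11.4. THG1, which adds a guanosine to histidine tRNA, was 2.56-fold lower at 10 than at 0 mM (71.3 against 182), did not pass, and had a difference between dose groups of 1.67 log2 at equal spike-in signal.

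Of 9 measured genes for splicing and export 2 were higher and 0 lower (all genes 11.4% and 22%), with a median difference of 0.09 log2. They were SEN34, for a subunit of the splicing endonuclease, with 12.7, 20.3, 26.7, 27.0 and 34.4, and the export receptor gene LOS1. SEN15, for another endonuclease subunit, was 2.02-fold and the exportin gene MSN5 1.99-fold lower at 10 than at 0 mM. Neither passed the comparison (adjusted p = 0.146 and 0.0501 in limma), and at equal spike-in signal their differences were 1.62 and 1.50 log2.

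Of 47 measured tRNA modification genes 14 were higher and 0 lower in the dose-group comparison (all genes 11.4% and 22%), with a median difference of 0.44 log2. They were SMM1, CGI121, TRM1, URM1, TRM11, TRM2, GCD14, KTI12, NCS6, NCL1, DEG1, ELP3, TYW1 and TRM13. SMM1, for a dihydrouridine synthase, had 31.3, 24.8, 73.6, 75.5 and 81.1, and the methyltransferase gene TRM1 had 82.5, 48.2, 171, 146 and 176. Both had a lower signal at 0.01 than at 0 mM. Over that first step the median of the list was -0.43 log2, against 0.61 for the tRNA members and -0.24 for all genes.

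Of 10 measured genes for tRNA surveillance and decay 2 were higher and 1 lower (all genes 11.4% and 22%), with a median difference of 0.24 log2. PAP2, for the poly(A) polymerase of the TRAMP complex that tags faulty tRNAs, had 25.3, 28.4, 41.5, 38.9 and 43.8, and the nuclear RNA helicase gene MTR4 had 29.0, 31.2, 50.2, 52.2 and 51.9. MET22 was lower, with 313, 308, 159, 162 and 202, which turned to 1.34 log2 at equal spike-in signal. XRN1, an exonuclease gene, was 1.72-fold lower at 10 than at 0 mM and did not pass, and its difference on that other scale was 1.58 log2. Of 4 other polymerase III transcripts 2 were measured, and 0 passed in limma, also at an unadjusted p under 0.05. RPR1, the RNA of RNase P, had 27.1, 59.7, 48.2, 53.7 and 42.6. SNR52 was above the level at 0.1 and 1 mM alone, at 22.6 and 22.1. Along dose order MAF1 was the 1 gene of these 6 lists past the threshold.

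**Figure D5:**
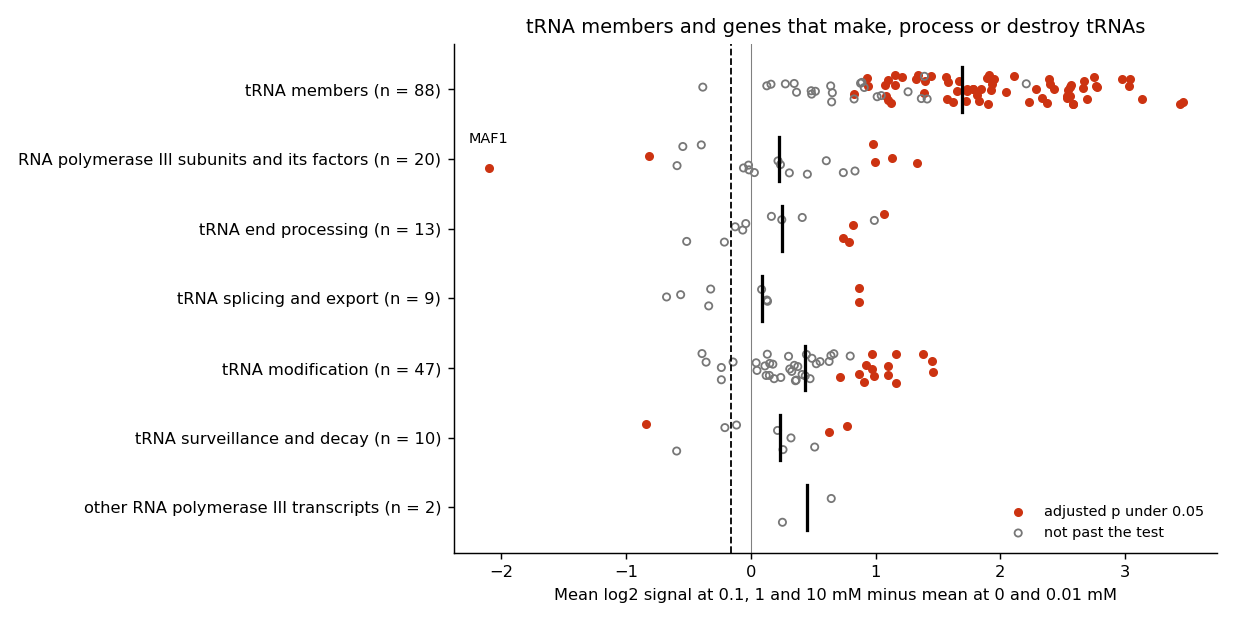
Difference of mean log2 signal at 0.1, 1 and 10 mM minus that at 0 and 0.01 mM (x axis) for the 88 measured tRNA members and 6 lists of genes that make, process or destroy tRNAs (rows). Filled points passed limma's test at an adjusted p under 0.05, open points did not, bars are medians and the dashed line is the median of all genes, -0.16. MAF1 stands lowest in its list, at -2.10, which was 0.077 at equal spike-in signal, where 3315 of 5042 genes were higher.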

How the data were processed

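The authors deposited 1 intensity per probe set and array on a linear scale. The submitters' processing notes name MAS5; version, scaling target and filters: not given in the sources used here. Probe sets were named through the platform annotation and RefSeq R64: 6504 had 1 gene and 328 several. Values under the 40th percentile (11.4) were raised to that level before log2 transformation. The 5083 single-gene probe sets at or above it on 2 arrays gave 4824 genes, averaging the probe sets of a gene. A slope on dose order and a difference between dose groups were fitted with limma 3.58.1 in R 4.3.3 (empirical Bayes, 3 residual degrees of freedom, Benjamini-Hochberg at 0.05 over all genes) and tested on simulated data. Their error is the scatter of 5 arrays, and the sources do not say whether cultures were separate. Folds from below the level are bounds. The members, dose groups and gene lists were chosen with earlier results of these data known. The genes named were members past a test, the largest differences from 0 to 10 mM, the brightest per amino acid, those near the level, and per list the genes past a test and the 4 largest differences; a few members were added after their values were seen. Alternatives covered array scaling, level, pseudocount, filter, probe sets, arrays left out, dose scale, variance trend and dose pairs.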

Additional observations from a re-analysis of the deposited data

How the results depend on the processing

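The count of tRNA members rising along dose order, 10, was 0 with arrays at 1 median, with quantile normalization, with the level at the 60th percentile and with no filter on dim probe sets (limma; 54, 53, 32 and 11 at an unadjusted p under 0.05). It was 86 of 90 at equal poly-A spike-in signal, where 4040 of 5042 genes rose. It was 35 of 86 at equal hybridisation control signal (146 of 4837 genes) and 17 of 91 with the level at the 20th percentile (88 of 5477 genes). With 1 array left out it was 0 to 44 of 88 (0 to 226 of 4824 genes). The 65 members higher in the comparison of dose groups became 41 of 73 with the level at the 60th percentile (430 of 3424 genes). They became 15 of 91 with no filter (240 of 5656 genes). With 0.1 mM among the lower doses they became 0 (3 at an unadjusted p under 0.05 in limma). Without the array of 0.1, 1 or 10 mM they became 23 to 67 of 88 (256 to 306 of 4824 genes). The count was 71 of 88 at 1 median (1136 of 4807 genes) and after quantile normalization (1005 of 4812 genes). The 55 members at least 2-fold higher at 10 than at 0 mM became 86 of 90 at equal spike-in signal (4467 of 5042 genes). They became 30 for 10 against 0.01 mM (516 of 4824 genes). They became 70 with the level at the 20th percentile and 39 with it at the 60th. The 1 lower member became 0 at 1 median, after quantile normalization, at equal spike-in signal, with the level at the 60th percentile, with a pseudocount, for 1 against 0 mM and for 0.1 against 0.01 mM. The median difference of 1.50 log2 was 3.78 at equal spike-in signal. Relative to the median of all genes it was 1.75, and 0.85 to 2.54 under the alternatives run. The cause of these changes was not tested.

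Over 138 results for single genes and steps, 18 of 2040 repeats changed sign. At equal spike-in signal 3315 of 5042 genes were higher and 45 lower between dose groups. On that scale the difference was 0.077 for MAF1 (slope 0.14), 1.34 for MET22, 1.50 for MSN5 and 1.62 for SEN15. It was 0.95 for TFC3, 1.67 for THG1, 1.58 for XRN1 and 1.71 for YNCK0003W. With 0.1 mM among the lower doses the difference was -0.031 for IMT3, -0.31 for SUF5, -0.0075 for YNCB0005C, -0.10 for YNCE0004C, -0.15 for YNCE0010W, -0.049 for YNCJ0018W and -0.032 for YNCL0038W. With 1 array left out it was -0.32 to 0.82 for RPR1 and -0.60 to 0.019 for YNCK0003W. No paired analysis was possible because each dose has 1 array.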
